A study of Mus musculus with 6 samples.

Results

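The genes described here are innate sensors and interferon-induced genes, taken by symbol: every gene whose name begins with Tlr, Nlr, Naip, Gbp, Ifi, Oas or Irg and for which any variant list gives a coding annotation, meaning a SnpEff impact of LOW, MODERATE or HIGH. This choice gave 24 genes of 7552 with such an annotation, and 70 genes of these prefixes were named in the lists at all, so that 46 had only noncoding annotations. The 24 are 5 Toll-like receptors, 7 NOD-like receptors, 1 NAIP, 5 guanylate-binding proteins, 1 immunity-related GTPase, 1 IFIT gene, 1 oligoadenylate synthetase-like gene and 3 other Ifi genes. No reads of RNA enter the data, so what follows concerns DNA variants and not expression.

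The lists come from exome sequencing of genomic DNA from whole bone marrow and ear of 3 mice labelled C57BL/6, animals 54 and 108 (males) and 136 (female), 1 library per tissue and animal. All 3 carried the Srsf2 P95H allele, a change in an SR protein that acts in splice site choice, and had received tamoxifen to activate Cre 50 to 60 weeks before they were killed as moribund. The labels give R26-CreERT2 to all 3, a driver at a locus active in most cell types, while the design text gives 1 of them hScl-CreERT with an R26eYFP reporter, a driver aimed at blood stem cells, without saying which animal this is. No untreated animal and no animal without the Srsf2 allele was analysed here, the marrow was not sorted, and the ear of the same animal is the only reference. Ear tissue can hold blood, and its share was not measured.

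Toll-like receptors bind microbial lipids, proteins or nucleic acids at the cell surface or in endosomes and signal through the adaptors Myd88 and Trif. NOD-like receptors work in the cytosol, where NAIPs with Nlrc4, or Nlrp1 proteins on their own, assemble inflammasomes that activate caspase 1. Interferon in turn induces the guanylate-binding proteins and immunity-related GTPases, which act on the vacuoles of intracellular microbes, and the IFIT and OAS proteins, which sense or block foreign RNA. Several of these families lie in tandem arrays of near-identical copies in the mouse, where a short read can fit more than 1 gene.

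A pair of sequences is given first because both show where listed variants of these families lie in low-complexity sequence. In the ear of animal 54 the files list an insertion in the splice region of Gbp3, a guanylate-binding protein, at chr3:142566318-142566337 (GRCm38, forward strand). The 2 alleles as listed are printed with the inserted bases in capitals.
Gbp3 listed reference allele: cttttttttttttttttttt
Gbp3 listed variant allele: ctttttttttttttttttttTTTTTT
The insertion lengthens a run of 19 T to 25, and 4 of only 6 counted reads carried it (66.7%, exact 95% binomial interval 22.3 to 95.7%). The base right after this run, position 142566338, and a base a little further on, position 142566343, were the positions of the only Gbp3 sites listed in both tissues of any animal. Summed over those 2 sites and the 6 samples, all 193 read counts were on the forward strand and 0 on the reverse strand. A read that covers both sites is counted at each, so these are not 193 separate reads.

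The other sequence is a RefSeq promoter (GRCm38.p6) of Ifit3, an interferon-induced gene of these prefixes that has no coding annotation in the lists and is therefore not among the 24. It is shown from chr19:34583477-34583506, forward strand, with the 2 variant positions in capitals, which lie 38 and 36 bases before the annotated start.
Ifit3 window: tcacccccccccccAcTgcccccttatata
At the first capital, an A-to-C change was listed in all 6 samples, with variant shares, marrow before ear, of 47.6 and 44.9% for animal 54, 43.0 and 40.8% for animal 108, and 56.7 and 43.1% for animal 136. All reads with the variant were on the forward strand in each sample (25 to 53 reads), while reference reads were found on both strands. The mapping quality was 23 to 26 where a uniquely placed read reaches 42. At the second capital, a T-to-C change was listed in the marrow of animals 54 (25 of 63 reads) and 108 (36 of 91 reads) and in no ear. Its variant reads were also all on the forward strand, at mapping qualities of 26 and 25. Promoter windows were found for 20 of the 24 genes, and none of the 20 held a listed site. The libraries are exomes and the coverage of these windows was not measured, so no lack of promoter variants is read from this.

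Coding variation in the 24 genes was uneven between animals. Sites called with the same alleles in marrow and ear of an animal, called shared sites here, came to 12 for animal 54, 99 for animal 108 and 19 for animal 136, which are 107 different sites. Animal 108 alone held 80 of them, animal 54 alone 8, animals 108 and 136 together 15, and all 3 animals 4. Without animal 108 the 107 sites fell to 27. Of the 24 genes, 12 had a shared site (50%), beside 42.5% of all 7552 genes. The NOD-like receptors held 65.4% of the shared sites.

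**Figure D1:**
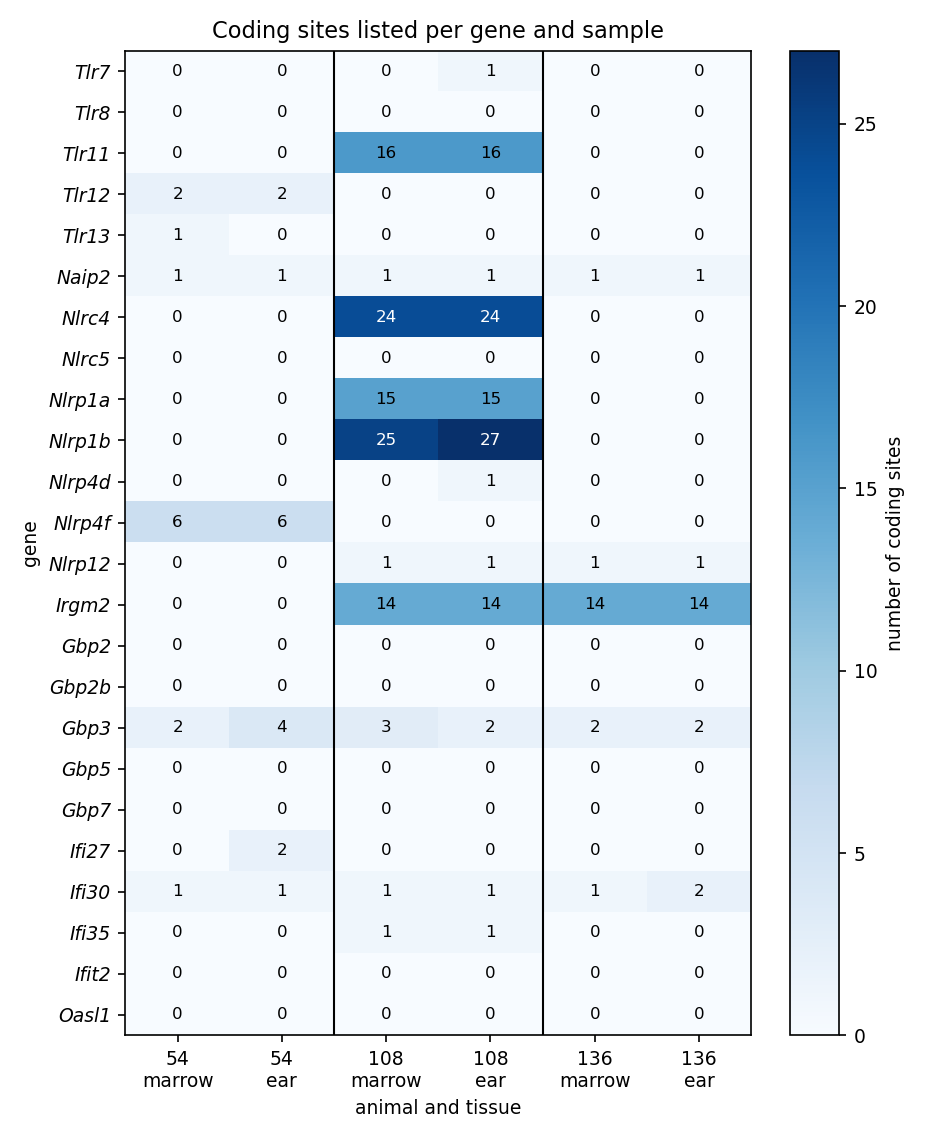
Number of coding sites listed in each of the 24 genes (rows) in marrow and ear of each animal (columns), with the colour scale giving the same number. Nlrc4, Nlrp1a, Nlrp1b and Tlr11 have 15 to 27 sites in both tissues of animal 108 and 0 in the other animals, and Irgm2 has 14 in each tissue of animals 108 and 136.

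Of the Toll-like receptors, Tlr11 and Tlr12 carried shared sites. Both recognise profilin of protozoan parasites in mice, and their shared sites were listed in different animals here: Tlr11 had 16 sites in animal 108 alone and Tlr12 had 2 in animal 54 alone. The 16 Tlr11 sites, all in exon 2 of 2 (gene at chr14:50357914-50363663), were 8 missense and 8 synonymous changes. Their variant share, the percent of counted reads with the variant allele, ran from 46.1 to 56.8% in marrow (median 50.0%) and from 41.1 to 57.1% in ear (median 46.4%), at median depths of 213.5 and 169 reads and mapping qualities of 41 to 42. The missense changes, with positions counted from the first residue of the annotated protein and the reference residue first, were R119S, I217T, T226M, K259R, Y375H, L386F, Y452N and I474M. Tlr12 had the synonymous A609A in 38 of 95 marrow reads and 34.4% of ear reads, and the synonymous H45H at 40.7% and 48.9%.

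The remaining Toll-like receptors, the endosomal RNA sensors Tlr7, Tlr8 and Tlr13 on the X chromosome, had no shared site. Tlr7 was listed for D346N in the ear of animal 108 with 2 of 16 reads (12.5%, interval 1.55 to 38.4%). Tlr13, a sensor of bacterial ribosomal RNA, was listed for the synonymous A97A in the marrow of animal 54 with 4 of 39 reads (10.3%, interval 2.87 to 24.2%). Tlr8 entered through a somatic call only. Both animals are males, with a single X chromosome, and the calls rest on 2 and 4 variant reads.

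Naip2, which binds the rod protein of bacterial secretion systems and hands the signal to Nlrc4, had 1 coding site, Y540N in exon 10 of 15 at chr13:100161909, in all 6 samples. Marrow before ear, the variant share was 48.1 and 46.8% for animal 54, 47.7 and 48.4% for animal 108, and 49.0 and 47.7% for animal 136, at 323 to 568 reads. The 6 values span little more than 2 percentage points, with a mean difference between marrow and ear of 0.644 ± 1.12 points (SD, n = 3 animals). Mapping quality at the site was 23 to 26, and of the other genes only Nlrp4f had shared sites with values that low, so reads there could not be assigned to Naip2 and its neighbouring copies with certainty. Naip1, Naip3, Naip5 and Naip6, the other NAIP genes named in the lists, had only noncoding annotations.

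Nlrc4, the adaptor of the NAIP inflammasome (chr17:74426255-74459144), had 24 shared sites in animal 108 and none in animals 54 and 136. They were 7 missense changes (C948R, T799I, N782S, I756V, N670S, D385N and N99S), 15 synonymous changes and 2 in a splice region. Of the 24 sites, 15 were in exon 4 of 9. Variant shares ran from 36.0 to 55.9% in marrow (median 47.9%) and from 34.2 to 65.6% in ear (median 46.3%), at mapping qualities of 39 to 42. Among the lowest shares were those of 4 neighbouring synonymous sites of exon 4 (F354F, G350G, T337T and L331L), at 36.0 to 44.4% in marrow and 34.2 to 38.4% in ear and at 345 to 432 reads each, which are the deepest sites of the gene. As these lie within reach of the same reads, they do not count as separate observations.

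Nlrp1a and Nlrp1b lie side by side on chromosome 11 (chr11:71091197-71144969 and chr11:71152574-71242514) and encode inflammasome sensors, of which Nlrp1b is cleaved by anthrax lethal toxin and is known for strong differences between inbred strains. Both had shared sites in animal 108 alone. Nlrp1a had 15, of which 11 were synonymous and 3 missense (K1299R, R1131Q and E112G), and the last was a splice acceptor change of HIGH impact at the end of intron 1 of 13, upstream of the start codon, listed with 10 of 31 reads in marrow (32.3%) and 10 of 15 in ear (66.7%). Nlrp1b had 24, of which 15 were missense, 8 synonymous and 1 in a splice region, and 17 of the 24 were in exon 2 of 13.

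The variant share in Nlrp1b moved with mapping quality. At its 4 sites with mapping quality of 40 or above in both tissues the share was 42.3 to 50.3% in marrow (median 48.5%) and 42.2 to 51.0% in ear (median 47.5%), and none of the 4 altered the protein. At the other 20 sites it was 22.1 to 42.0% in marrow (median 36.3%) and 27.8 to 43.4% in ear (median 35.7%), and all 15 missense sites were among these. All 15 shared missense changes of Nlrp1b therefore rest on reads placed with less certainty. Further missense changes of the gene were listed in 1 tissue of animal 108 only, Q779E, F773L and I113M in ear and S435A in marrow. Their shares were 30.25 to 35.92%, at mapping qualities of 32 to 35. In Nlrp1a the 11 sites below that quality had medians of 48.4% and 48.7%, and the 4 at or above it 42.7% and 48.6%, so its shares were not lower at the less certain sites. Whether reads of the other Nlrp1 copies contribute at either gene was not tested. The lowest Nlrp1b shares were those of S772T, D768A and Q756H in exon 6, at 22.1, 23.7 and 27.5% in marrow and 36.4, 33.1 and 37.5% in ear. Q275L and Q275K are adjacent bases of 1 codon that the annotation treats one by one, with 30.6 and 31.0% in marrow and 28.0 and 28.7% in ear, and the residue that both would give together is not listed.

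**Figure D2:**
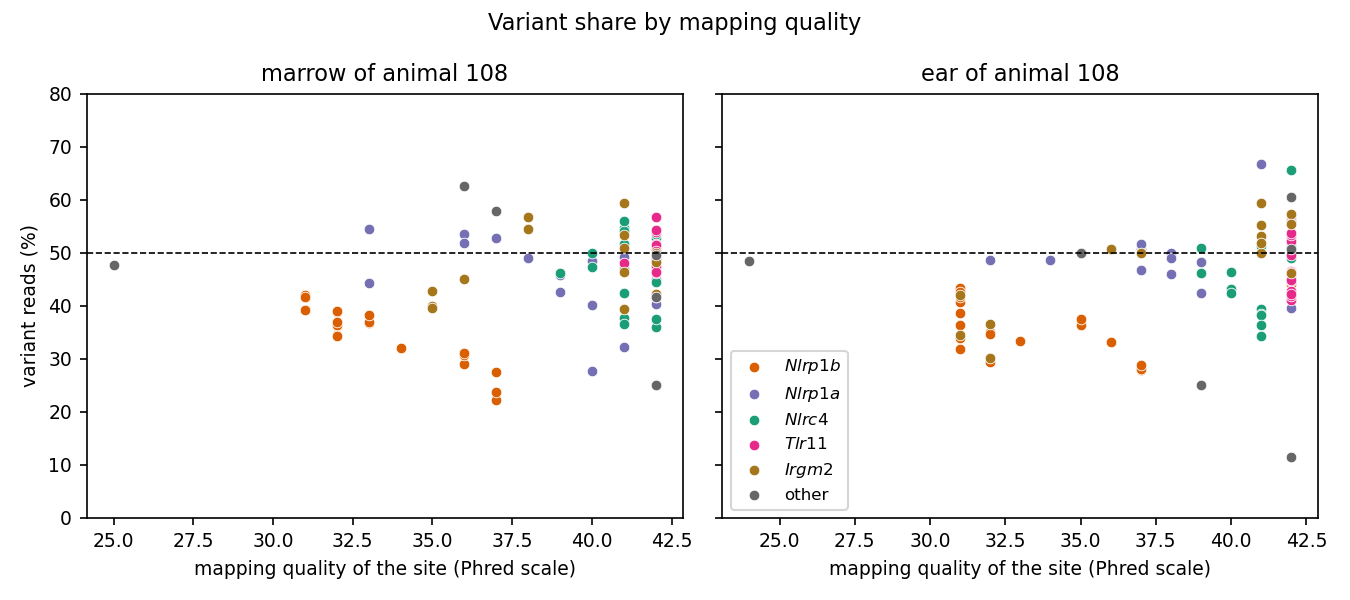
Variant reads in percent of counted reads (y axis) against the mapping quality of the site on the Phred scale (x axis) at the 99 shared coding sites of animal 108, marrow on the left and ear on the right, each point a site coloured by gene and the dashed line at an equal share of both alleles. Nlrp1b sites under a mapping quality of 40 lie at 22.1 to 43.4%, while Tlr11 sites, all at 41 or 42, lie at 41.1 to 57.1%.

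Over the 12 genes with shared sites, 71 pairs of site and animal (10 genes) had mapping quality of 40 or above in both tissues. Their median shares were 48.2% in marrow and 46.4% in ear, and the other 59 pairs (7 genes) had 40.6 and 43.4%. Nlrp1b gave 20 of these 59, at medians of 36.3 and 35.7%, while the 11 of Nlrp1a had 48.4 and 48.7%. Sites under 40 made up 66.7, 42.4 and 47.4% of the shared sites of the 24 genes in animals 54, 108 and 136, beside 32.1, 25.97 and 44.9% of the shared coding sites of all genes. No shared site of the 24 genes was homozygous, taken as a variant share of at least 0.9 in both tissues, where 1.51, 1.31 and 5.84% of all shared coding sites in animals 54, 108 and 136 were.

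The other NOD-like receptors with shared sites were Nlrp4f, of a subfamily expressed in oocytes, and Nlrp12, which dampens inflammatory signalling in myeloid cells. Nlrp4f had 6 sites in animal 54 alone, the missense D731N, N646S and D247G and 3 synonymous sites, at 33.3 to 48.3% in marrow and 28.8 to 52.6% in ear and with mapping qualities down to 24. Nlrp12 had K1034R in exon 10 of 10 (chr7:3222537) in animals 108 and 136, at 49.6% in marrow against 60.4% in ear for animal 108, and 46.3% against 46.2% for animal 136, with 199 to 235 reads and a mapping quality of 42 in all 4 samples. The reference sequence, taken from the substrain C57BL/6J, is known to have lysine at this residue where most other mouse strains have arginine. Nlrp4d, a pseudogene, had a splice donor change in the ear of animal 108 alone (6 of 51 reads, 11.8%), at a position outside its span in RefSeq, and Nlrc5, a transactivator of MHC genes, had shared sites in introns only.

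Irgm2, an immunity-related GTPase that regulates other GTPases of its family on host membranes (chr11:58214977-58222783), had the same 14 sites in animals 108 and 136 and none in animal 54. All 14 were in exon 2 of 2, with 9 missense changes (V10D, N27D, I143T, L157S, V175I, S205N, H214P, A310S and T360S) and 5 synonymous ones. With introns and untranslated regions included, 44 of 44 shared sites were the same in both animals. Variant shares in animal 108 had medians of 47.3% in marrow and 50.4% in ear. In animal 136 they had medians of 44.8% and 37.4%, and the lowest were the 24.2% of V10D and 24.1% of D18D in ear, at 33 and 29 reads. Mapping quality was 40 or above at 8 of the 14 sites and 31 to 38 at the other 6, I143T, L157S and V175I among them.

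Of the guanylate-binding proteins, which lie in a cluster on chromosome 3, Gbp3 had shared sites, namely the 2 C-to-T changes next to the run of T printed above, in all 3 animals. At position 142566338 the share, marrow before ear, was 66.7 and 57.1% for animal 54, 62.5% and 7 of 14 reads for animal 108, and 63.2 and 68.8% for animal 136, at 9 to 19 reads. At position 142566343 it was 36.4 and 46.2%, 57.9 and 25.0%, and 41.2 and 56.2% in the same order, at 11 to 26 reads. Gbp2, Gbp2b, Gbp5 and Gbp7 entered through somatic calls only.

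Ifi30, a lysosomal thiol reductase that opens disulfide bonds of antigens, had 1 shared site in all 3 animals, a G-to-T change at chr8:70764764. The annotation gave it HIGH impact as a splice acceptor and a splice donor at once, so whether it alters a splice site is not known here. Marrow before ear, its share was 33.3 and 18.8% for animal 54, 25.0 and 11.5% for animal 108, and 18.8 and 25.0% for animal 136, with 3 to 6 variant reads of 12 to 26. In the ear of animal 136 a frameshift, TGG to TG, was listed from position 70764763 in 214 of 214 reads (100%, interval 98.3 to 100%). It removes a G from the short run that holds the site above, at which only 12 reads were counted in the same sample. The frameshift is in no other sample's list, marrow of the same animal included. Ifi35, a cytosolic protein induced by interferon, had R108W in animal 108, at 41.6% in marrow and 50.7% in ear with 190 and 148 reads. Ifi27 was listed in the ear of animal 54 for 2 sites, of which one had the variant in 18 of 18 reads, all on the reverse strand, and the other in 6 of 27. Ifit2 and Oasl1 had somatic calls only.

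The genes with many shared sites lay in stretches dense in shared variants of the same animal. In the 1 Mb around Irgm2 animal 108 had 709 shared single nucleotide sites, animal 136 had 675 and animal 54 had 1. Around Nlrc4 there were 4, 484 and 1 in animals 54, 108 and 136. Animal 108 had 387 around Tlr11, where each other animal had 1, and 145 and 141 around Nlrp1a and Nlrp1b, where the others had 0. The genes' own shared sites are counted in, and Nlrp1a had 15 coding or splice and 17 intron sites, Nlrp1b 24 and 23. Around Nlrp4f and Tlr12 animal 54 had 247 and 250, and animals 108 and 136 had 2 and 1, and 10 and 8. The median gene of all genes had 4, 5 and 2 such sites in animals 54, 108 and 136, and 14.9, 24.2 and 3.25% of genes had at least 50, beside 2, 6 and 1 of the 24.

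Counting outward from each gene over consecutive 1 Mb windows with at least 50 shared sites, the stretch around Irgm2 was 6 Mb long in both animals, with 2260 sites in animal 108 and 2199 in animal 136. In animal 108 the stretches were 3 Mb at Nlrc4, 4 Mb at Ifi35, 7 Mb at Nlrp1a and Nlrp1b together and 11 Mb at Tlr11, and in animal 54 they were 5 Mb at Tlr12 and 10 Mb at Nlrp4f. The sites of these genes are therefore listed together with many others of the same animals and are no separate events. Nlrp12, Naip2, Gbp3 and Ifi30 lay outside such stretches: K1034R of Nlrp12 had 6 and 5 shared sites within its 1 Mb in the 2 animals that carry it and 6 in the animal that does not, and Naip2 had 6, 4 and 2 in animals 54, 108 and 136.

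**Figure D3:**
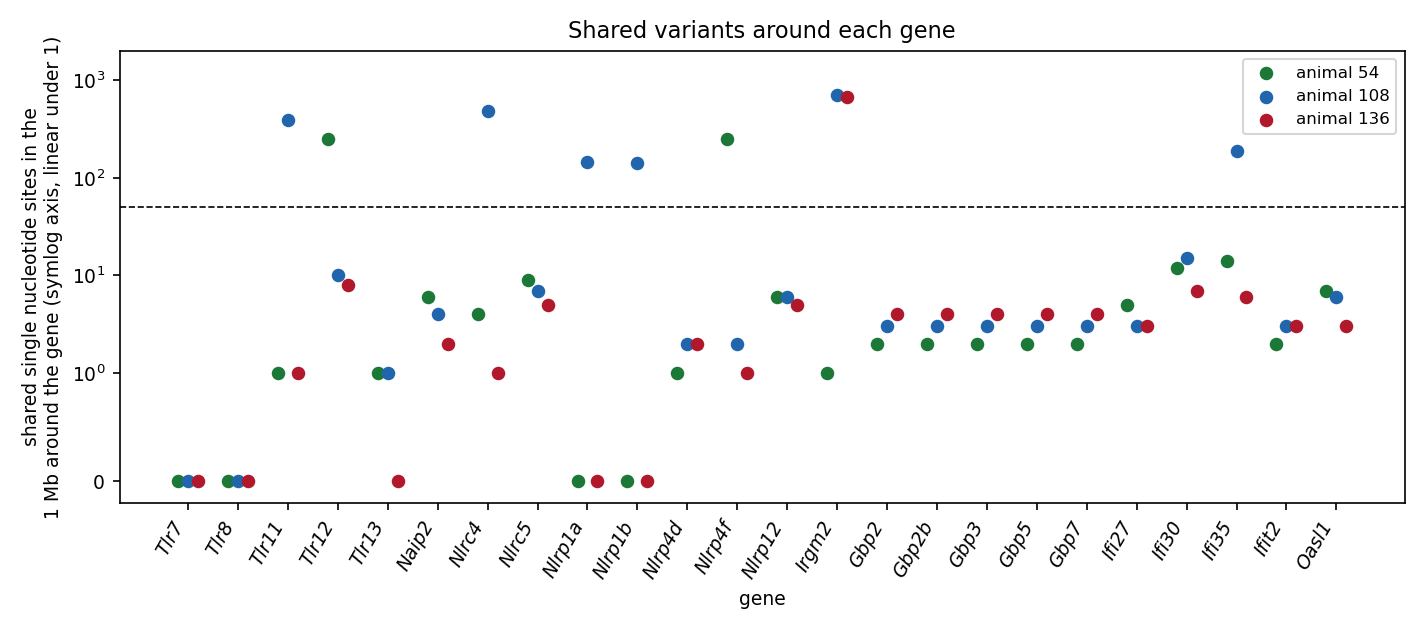
Number of single nucleotide sites shared by marrow and ear in the 1 Mb around each of the 24 genes (y axis, symmetric log scale that is linear under 1), with 1 point per animal and a dashed line at 50 sites. Irgm2 stands above the line in animals 108 and 136, Tlr11, Nlrc4, Nlrp1a, Nlrp1b and Ifi35 in animal 108, Tlr12 and Nlrp4f in animal 54, and the other genes in no animal.

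By effect, the 107 shared sites comprised 50 protein-altering sites (48 missense and 2 of HIGH impact), 52 synonymous sites and 5 in splice regions. The 2 of HIGH impact were the Nlrp1a splice acceptor change and the Ifi30 site annotated as acceptor and donor at once. The ratio of protein-altering to synonymous sites was 0.962, beside 0.642 over all genes (4945 to 7707). Within animals it was 1 for both males and 2.40 for animal 136, beside 0.728, 0.607 and 0.888 over all genes. Genes differed: it was 15 to 8 in Nlrp1b and 9 to 5 in Irgm2, but 7 to 15 in Nlrc4 and 4 to 11 in Nlrp1a. All 15 protein-altering sites of Nlrp1b had a mapping quality under 40 in a tissue, and 0 of its 4 sites at 40 or above altered the protein. Under 40 were also 4 of the 9 in Irgm2, 2 of the 4 in Nlrp1a, 1 of the 7 in Nlrc4, all 3 in Nlrp4f and Y540N of Naip2. All 8 in Tlr11 were at 41 or 42, and those of Ifi30, Ifi35 and Nlrp12 were at 42. The ratio of 0.962 therefore rests in part on reads placed with less certainty, and no ratio was taken at 40 or above. The ratios are descriptions of linked sites in a handful of stretches, and no test was made on them.

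The design sets the marrow of each animal against its own ear, which stands for the germline. No site of the 24 genes passed the threshold for a difference in variant share. Fisher's exact test on reads of both alleles, with p-values adjusted by the Benjamini-Hochberg method over all sites of the animal, called 0 of 11 sites of the 24 genes for animal 54, 0 of 99 for animal 108 and 0 of 19 for animal 136. Over all sites it called 0.0346, 0.0327 and 0.0181%. At an unadjusted p under 0.05 the counts were 0, 9 and 2, beside 8.41, 7.43 and 6.22% of all sites, and of these 11 sites 6 were higher and 5 lower in marrow.

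The lowest p was at the synonymous L1209L of Nlrp1a in animal 108, with the variant in 24 of 87 marrow reads (27.6%) and 38 of 76 ear reads (50.0%), a difference of -22.4 ± 7.47 percentage points (standard error from reads; Fisher's exact test, p = 0.00376, adjusted p = 0.331). The Nlrp1a sites with the next lowest p, K1299R (40.4% in marrow against 55.7% in ear), the splice acceptor change (32.3 against 66.7%) and D1103D (42.6 against 50.7%), had lower values in marrow too, while over its 15 sites 7 were higher and 8 lower in marrow. In Irgm2 of animal 108, I143T was at 42.8% in marrow and 30.2% in ear and L157S at 45.1 and 34.4%, while 7 of its 14 sites were higher and 7 lower in marrow. In Tlr11, L509L was at 56.8% in marrow and 44.9% in ear, and 11 of 16 sites were higher in marrow.

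At heterozygous sites of the 24 genes, those with a variant share of 0.2 to 0.8 in ear, the mean difference of marrow and ear was -2.01 percentage points for animal 54 (10 sites), -0.0409 for animal 108 (98 sites) and 1.86 for animal 136 (19 sites). The mean over animals was -0.0630 ± 1.94 points (SD, n = 3 animals), beside -0.157 ± 0.202 over all genes. The direction differs between animals, and the spread over animals is larger than the mean.

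Sites of the 24 genes that could be tested over all animals at once were 3: Naip2 Y540N, Gbp3 position 142566343 and the Ifi30 site at 70764764. The Cochran-Mantel-Haenszel test, stratified by animal and with p-values adjusted over 4444 sites called in all 6 samples, called 0 of the 3, and the share of sites it called was 0.0225%. At an unadjusted p under 0.05 it was also 0 of 3, beside 8.06%. The mean differences were 0.644 ± 1.12 points for Naip2, 2.68 ± 26.3 for Gbp3 and 7.27 ± 11.7 for Ifi30 (SD, n = 3 animals). The spread was small for Naip2 alone. As reads at Y540N could not be assigned to Naip2 and its neighbouring copies with certainty, these values set no limit on a shift in Naip2 itself.

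**Figure D4:**
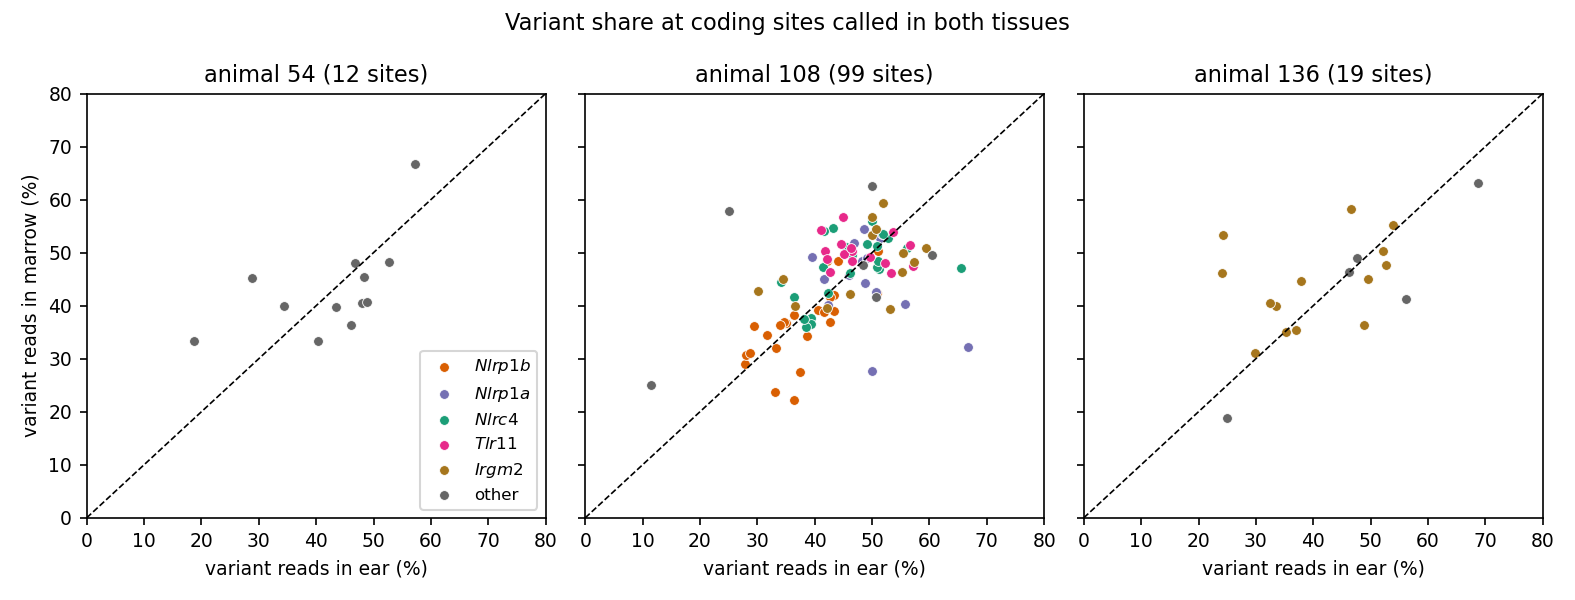
Variant reads in percent of counted reads in marrow (y axis) against ear (x axis) at the coding sites of the 24 genes shared by both tissues, 1 panel per animal, each point a site coloured by gene, with the dashed line marking equal shares. Points scatter on both sides of the line (50 higher and 46 lower in marrow among heterozygous sites of animal 108), and no site passed the adjusted threshold.

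Strelka, a caller that compares marrow with ear of an animal, gave 15 somatic calls with a coding annotation in 12 of the 24 genes: 6 for animal 54, 4 for animal 108 and 5 for animal 136. Of these, 12 in 11 genes altered the protein, and 11 of 24 genes (45.8%) stand beside 31.1% of all 7552 genes, a share from which nothing is read, since such a call is one of the ways a gene entered the list. For 8 of the 24 genes it was the only way. No change was called in more than 1 animal. The lists of Strelka give a quality on a Phred scale and no reads.

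Among the receptors, the authors' deposited table gave P483Q in Tlr11 of animal 108 a quality of 77, the highest of the 15 calls. It lies 26 bases from the shared site I474M, which had 205 counted reads in marrow, and the all-variant list of that marrow does not hold it. In animal 54 the authors' deposited table held W995L of Tlr8 at quality 16, A97A and L129L of Tlr13 at 28 and 29, A658T of Nlrc5 at 23, and D393Y and A522T of Nlrp12 at 32 and 18. For E894G of Nlrp4f in animal 108 the authors' deposited table gave 22. The marrow list held 1 of the 15 calls, A97A of Tlr13, with the 4 of 39 reads given above, so the allele share of the other 14 is not known here.

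Among the interferon-induced genes, 3 calls were premature stops: E417* of Gbp2 and S360* of Oasl1 in animal 136 and E377* of Gbp5 in animal 108, with qualities of 17, 16 and 24 in the authors' deposited table. Oasl1 is an OAS-like protein without synthetase activity that limits interferon production. The others were E534D of Gbp2b and T92A of Gbp7 in animal 136 and a splice region change of Gbp5 in animal 108, at qualities of 25, 21 and 25 in the authors' deposited table, and A221S of Ifit2, an interferon-induced RNA-binding protein, in animal 136 at 42. By position the stop in Gbp2 is at chr3:142633437 in exon 8 of 11, that in Gbp5 at chr3:142505639 in exon 7 of 11 and that in Oasl1 at chr5:114936961 in exon 7 of 7, the last exon.

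The 15 calls had a median quality of 24 in the authors' deposited table and 3 of them reached 30, beside a median of 25 and 36.2% of all 3812 coding calls. C-to-A changes, counted with their complement, were 10 of the 15 (66.7%), beside 39.8% of all single-base coding calls. All 3 stops were of this kind. HIGH impact was given to 3 of 15 and to 7.97% of all coding calls, and the marrow list held 6.67% and 9.37%. Why the calls are of this kind was not tested.

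**Figure D5:**
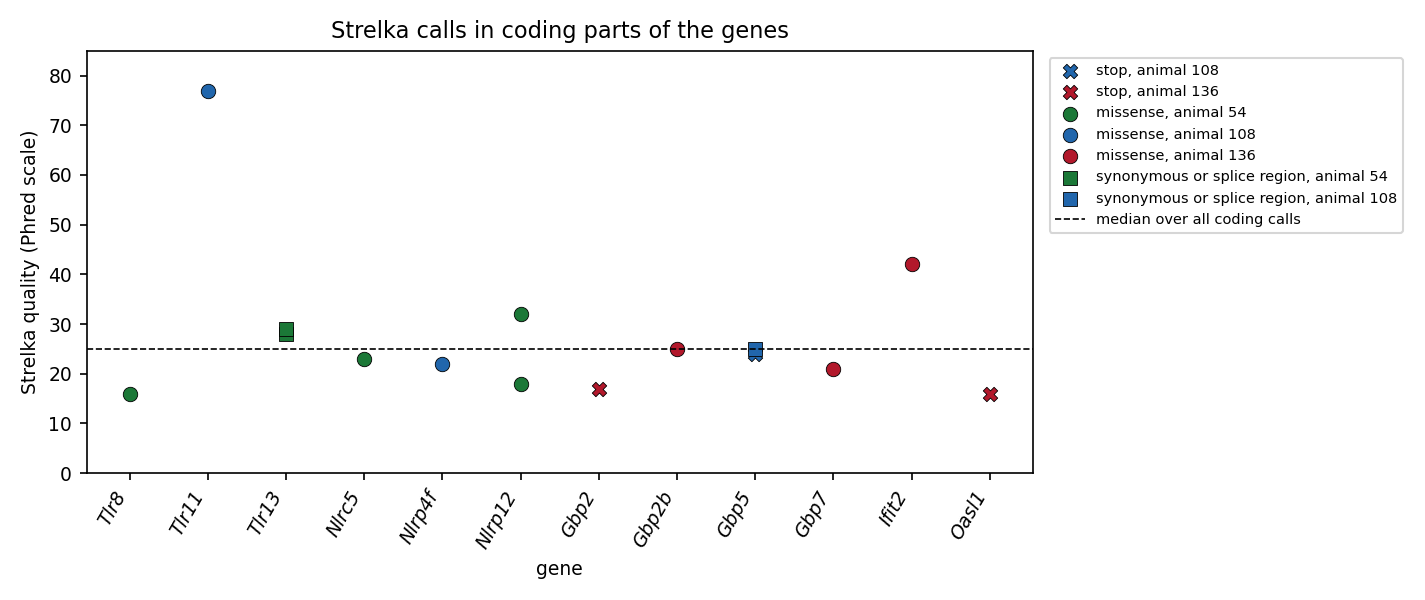
Quality on the Phred scale (y axis) of the 15 Strelka calls with a coding annotation, by gene (x axis), with colour for the animal and shape for the effect, and a dashed line at the median of 25 over all coding calls. Tlr11 at 77, Ifit2 at 42 and Nlrp12 at 32 are the 3 calls at or above 30, and the 3 premature stops lie at 16, 17 and 24.

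VarScan2, which lists reads of both tissues, gave 0 of its 359 coding calls in the 24 genes. Taken as 3 divided by the number of calls, the upper limit of the share is 0.836%. The 24 genes held 0.19 to 1.02% of the coding sites listed per sample, so no lack of calls is read from the 0. VarScan2 gave 7 noncoding calls marked somatic, in Irgm2 (3), Naip2, Nlrc4, Nlrp1a and Tlr11, and 1 marked as loss of heterozygosity in Nlrc4, of 3272 and 500 such calls at all positions. Of the 7 sites, 5 were listed among the ear variants of the same animal as well, so the variant was read there too. The call with the lowest p in the authors' deposited table, 0.00865, was in the 5′ untranslated region of Nlrc4 at chr17:74453131 in animal 108, with 16 of 30 reads in marrow (53.3%) and 3 of 19 in ear (15.8%). In Irgm2 of animal 136 a pair of neighbouring intron sites, chr11:58216925 and chr11:58216927, had the same 9 of 19 reads in marrow and 5 of 29 in ear, with a p of 0.0279 in the authors' deposited table.

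The genes that carry the signals of these sensors were taken from a list of 63 symbols, old and new names of 60 adaptors, kinases, transcription factors and effectors outside these prefixes. Of 58 genes found by symbol, 28 had a coding annotation. Shared sites were found in 9 of the 28 (32.1%, 23 sites), beside 42.5% of all 7552 genes with such an annotation, and in 6 of the 9 genes at least 1 altered the protein. A protein-altering Strelka call was found in 7 of the 28 (25%), beside 31.1%. In animal 108 the shared sites included 8 in Eif2ak2, the RNA-dependent kinase PKR, 3 in Irak4, a kinase next to Myd88 (I11V, Q183R and a synonymous site), I638M in Dhx58, an RNA helicase, Y669S in Chuk, a kinase of NF-kappa-B activation, and 2 sites in Casp4, an inflammatory caspase, of which 1 altered the protein. Ikbke, a kinase upstream of interferon regulatory factors, had A483S and S471G in animals 54 and 108. Strelka called P310T in animal 108 and Q16H in animal 54 in Irak1, E147* in Irf5, G209V and G176V in Ikbkb and L306S in the pore-forming Gsdmd in animal 136, K76R in Nfkb1 in animal 108, and A646T in Mx2 and a protein-altering change in Mx1 in animal 54. Myd88 and Irf8 had a coding site in 1 tissue only, and none of the listed genes had a coding VarScan2 call.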

How the data were processed

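The data are 6 exome libraries, with a median of 45 to 114 reads at listed coding sites. The all-variant lists come from SAMtools with SnpEff annotation, per the file headers, and hold read counts per allele and strand. The authors' VarScan2 lists give read counts in both tissues and a somatic p-value, and the authors' Strelka lists a quality. The submitters' processing notes name FastQC, Bowtie2, SAMtools, GRCm38 and mm9, and positions fall in the gene spans of GRCm38. The sources used here do not give the callers' filters. Each site was given its annotation of highest impact. The rules for naming genes take every member with a HIGH impact or protein-altering somatic call, the 10 with most shared sites, and those shared in 1 or 2 animals. Members that meet none of these rules, such as Tlr7 and Ifi27, are named as well, so all 24 genes appear.

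Sites called in both tissues of an animal, with at least 10 counted reads in each, were tested with Fisher's exact test, two-sided. Sites called in all 6 samples were tested with the Cochran-Mantel-Haenszel test (SciPy 1.17.1, pandas 2.3.3). Both had Benjamini-Hochberg adjustment and a threshold of 0.05. The tests compare libraries of 3 animals, and 1 library per tissue leaves technical spread unmeasured. Intervals are Clopper-Pearson at 95% and cover counting error only, while the limit for the VarScan2 count of 0 is 3 divided by the number of calls. The tests were checked on simulated reads that vary by counting error only, so the check does not cover further spread between libraries. Animal numbers pair marrow and ear, per the labels, and deviations of paired samples correlated at 0.153, 0.196 and 0.111 over 4444 sites in animals 54, 108 and 136. The genes and lists were chosen with earlier results of these data known. Alternatives were other minimums of depth, mapping quality, call quality and p, other tests, and leaving out each animal.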

Additional observations from a re-analysis of the deposited data

How the results depend on the processing

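Counts that moved by over 1.5 times were these. The 107 shared coding sites ranged from 27 (without animal 108) to 107 when each animal was left out, since 80 of them are private to that animal. VarScan2 somatic calls in the 24 genes fell from 7 to 1 at a deposited p under 0.01 and to 1 at a depth of at least 20 reads, and ranged from 2 (without animal 108) to 7 with an animal left out. Strelka calls fell from 15 to 3 at a quality of at least 30 and ranged from 9 (without animal 54) to 11. The stratified test called 0 sites of the 24 genes with the replicate block, that is with animals paired, and 0 with no replicate block, by the exact conditional test, at 20 reads and without each animal. The ratio of protein-altering to synonymous sites ranged from 0.941 to 1.5, and the mean difference of marrow and ear from -1.03 to 0.912 percentage points, so its sign is not settled. For the ratio, the mapping quality setting of 30 kept all Nlrp1b sites, which lie at 31 or above. A setting of 40 was not tried for the ratio. Requiring 20 reads or a mapping quality of 30 left 102 and 104 shared sites, and the 24 genes became 20 with MODERATE or HIGH annotations only and 16 without the somatic lists. Depth limits the Gbp3 and Ifi30 sites most, and Strelka calls have no reads to weigh. The self-test moved simulated sites by preset shifts, so smaller shifts can be missed.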
